A study of Mus musculus with 175 samples.

Results

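The peroxiredoxins and their partner antioxidant enzymes were followed through 4 sorted progenitor populations of the mouse fetal liver. The set held 10 genes, named by symbol in the deposited gene annotation of 49585 mouse features. These were the peroxiredoxins Prdx1 to Prdx6, the glutathione peroxidases Gpx1 and Gpx4, catalase (Cat) and the copper-zinc superoxide dismutase Sod1. All 10 symbols were found once each, and all 10 passed the filter on low counts, a mean count of at least 1 per cell, which 11860 genes passed.

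Superoxide dismutases turn superoxide into hydrogen peroxide, and catalase, glutathione peroxidases and peroxiredoxins then reduce the peroxide to water. Peroxiredoxins do so with a reactive cysteine that is oxidised and is restored by thioredoxin, or by glutathione in the case of Prdx6. Developing erythroid cells carry iron, heme and oxygen, and Prdx2, catalase and Sod1 are among the well-known abundant proteins of the mature red cell.

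The cells were single E14.5 fetal liver progenitors, sequenced with a full-length cDNA protocol (Smart-Seq2) in which every cell was a library of its own. All populations came from embryos that carried the Runx1 dual reporter, C57BL/6 crossed with ICR, without treatment, and livers of 2 litters were pooled before sorting. The reporter marks activity of the distal (P1) Runx1 promoter with GFP and of the proximal (P2) promoter with human CD4 at the cell surface. The protocol text and the article name the GFP allele P1-GFP, while the genotype label gives P2-GFP::P2-hCD4/+. Megakaryocyte-erythroid progenitors (MEPs) were sorted as CD34- and common myeloid progenitors (CMPs) as CD34+, both within the CD41- CD150+ lineage-negative SCA1- C-KIT+ gate. Each was divided by the P2-hCD4 reporter into a negative (P2-) and a positive (P2+) fraction, so the P2 fractions rest on a reporter allele and not on RUNX1 protein. After the cell filters of the study 56 of 57 P2- and 47 of 48 P2+ cells remained among the MEPs, and 27 of 27 P2- and 42 of 43 P2+ cells among the CMPs. The CMPs carry the labels low and high, taken here to mean P2- and P2+. As the livers were pooled, a population is 1 sample without a replicate, no difference between populations was tested, and every interval of a level or ratio covers counting error only.

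The 172 kept cells held between 295064 and 1540631 reads on mouse genes, and the summed reads of a population were between 18334696 and 36351033. Levels are given as pooled CPM, the reads of a gene per 1000000 reads on mouse genes over the cells of a population, and 3 reads, the floor for a gene without reads, correspond to 0.0825 to 0.164 CPM. Values of the 4 populations are given in the order P2- MEPs and P2+ MEPs, then P2- CMPs and P2+ CMPs, wherever a sentence lists 4 of them without names. Cd34 followed its gate in sum but not in every cell, as 7 of 47 P2+ MEPs had a Cd34 read and 4 of 27 P2- CMPs had none. Itga2b, which encodes the CD41 that the gate left out, was at 33.6, 103, 32.0 and 39.1 CPM. Klf1, an erythroid transcription factor, was at 478, 243.5, 87.4 and 4.59 CPM, whereas Cd34 was at 0.0327, 13.05, 274.3 and 541 CPM. Only 2 of 42 P2+ CMPs had a Klf1 read, and 1 cell held 82.6% of these reads. The macrophage markers C1qa, C1qb, C1qc and Adgre1 had no read in any population, and the 10 macrophage markers summed to at most 10.2 CPM. The 10 hepatocyte markers summed to 12.4, 14.2, 38.5 and 28.0 CPM and the 6 mast cell and basophil markers to 0.327, 2.69, 72.8 and 34.2. One P2- CMP carries a conflicting label that names it an MEP; this cell had 236.8 CPM of Klf1 and no Cd34 read, and 3 other P2- CMPs also had Klf1 reads and no Cd34 read. Leaving it out changed none of the counts of differing genes given below and turned 1 log2 ratio, that of Sod1 between the CMP fractions, from -0.01 to 0.01.

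The reactive residue of each peroxidase is encoded in a short conserved stretch, shown here because it defines the families and because the similar coding sequences decide which reads can be assigned to 1 member. The windows are 30 coding bases of the principal GENCODE vM21 transcript on GRCm38, 5′ to 3′, with the codon of the peroxidatic cysteine (Prdx1 to Prdx6) or of selenocysteine (Gpx1 and Gpx4) in capitals.
Prdx1: tttacttttgtgTGTcccacggagatcatt
Prdx2: ttcacttttgttTGCcccacggagatcatc
Prdx3: ttcacatttgtgTGTcctacagaaattgtt
Prdx4: ttcacctttgtgTGTccaactgaaatcatc
Prdx5: tttacacctggcTGTtctaagacccacctg
Prdx6: tttaccccagtgTGCaccacagaacttggc
Gpx1: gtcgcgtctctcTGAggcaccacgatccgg
Gpx4: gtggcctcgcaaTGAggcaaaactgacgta
In Prdx1 to Prdx4 the cysteine codon was followed by a proline codon and then by a threonine codon. In Prdx5 and Prdx6 the codon after the cysteine was not one of proline. In both glutathione peroxidases the codon was TGA, which is read as selenocysteine through a hairpin in the 3′ untranslated region and otherwise ends translation. The codons lie at chr4:116691823-116691825 in exon 3 of Prdx1, at chr8:84970483-84970485 in exon 3 of Prdx2, at chr9:108339451-108339453 in exon 1 of Gpx1 and at chr10:80054737-80054739 in exon 3 of Gpx4, all on the plus strand. On the minus strand are the codons of Prdx3 (chr19:60870127-60870129, exon 4), Prdx4 (chrX:155332460-155332462, exon 3), Prdx5 (chr19:6907988-6907990, exon 2) and Prdx6 (chr1:161247368-161247370, exon 2). Over the aligned coding bases Prdx1 and Prdx2 were 71.0% identical, Prdx2 and Prdx4 74.1%, and Prdx1 and Prdx6 62.4%.

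Reads could be told apart between the members. No window of 70 bases of the principal transcripts of Prdx3, Prdx4, Prdx5, Prdx6, Gpx1 or Cat recurred in another annotated gene, while this was the case for 6.65% of the windows of Prdx1, 6.16% of Prdx2, 13.8% of Sod1 and 63.7% of Gpx4. Apart from Prdx6b, which had 9 reads in all, the similar genes that were counted were processed pseudogenes, and they took a small part of the reads. The Gpx4 copy Gpx4-ps2 held 6.21%, 6.11%, 6.64% and 5.95% of the reads of both genes. For Prdx2 the copy Tdpx-ps1 held 2.83%, 2.80%, 3.08% and 2.41% of both, and the binomial interval was lower in P2+ CMPs (2.17 to 2.66) than in P2- CMPs (2.69 to 3.51). Reads that matched gene and copy equally were not counted, so the Gpx4 counts in particular are uncertain. Exons of Prdx2 are overlapped by 2 genes, mainly Rnaseh2a, and those of Prdx5 by Trmt112. Without strand in the counting, reads in the overlapped 21.7% of the Prdx2 and 32.4% of the Prdx5 principal transcript were ambiguous. Rnaseh2a and Trmt112 lie on the opposite strand and are named for their position.

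**Figure D1:**
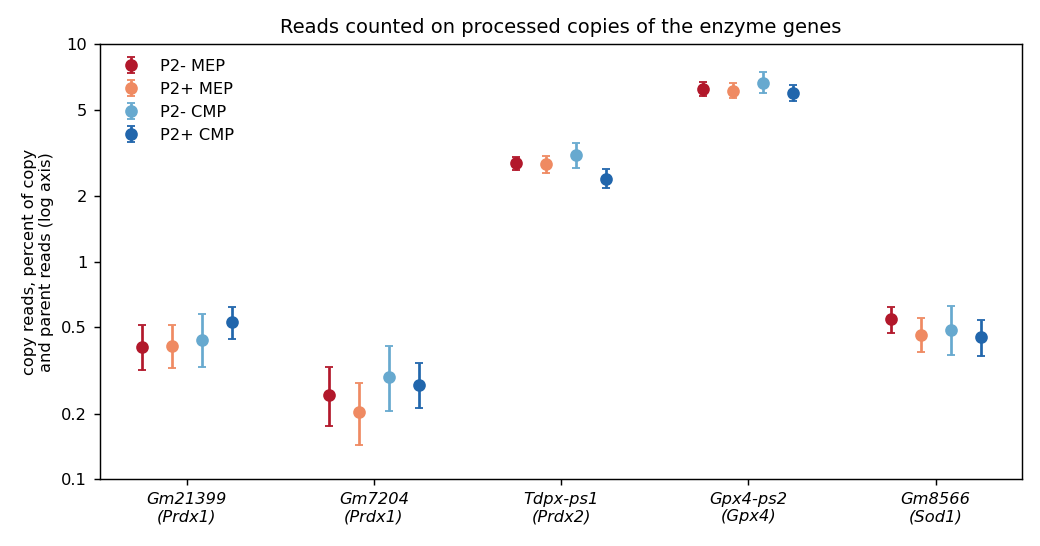
Reads counted on 5 processed copies (x axis, parent gene in parentheses) as percent of the reads of copy and parent (y axis, log scale) in the 4 populations; points are pooled values and bars exact binomial 95% intervals. The Gpx4 copy lies between 5.95% and 6.64% and the Prdx2 copy between 2.41% and 3.08%.

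All 10 genes were well expressed in every population, each above at least 77.5% of the genes that passed the filter. Prdx1, Prdx2, Gpx1, Gpx4 and Sod1 had a read in each of the 172 cells after every cell was thinned to 100000 reads. Catalase was the gene most often without a read after thinning. Among MEPs it was read in 54 of 56 P2- cells (96.4%, Clopper-Pearson 95% interval 87.7 to 99.6) and 41 of 47 P2+ cells (87.2%, 74.3 to 95.2). Among CMPs it was read in 21 of 27 P2- cells (77.8%, 57.7 to 91.4) and 35 of 42 P2+ cells (83.3%, 68.6 to 93.0). Without thinning these counts were 54, 43, 26 and 37 cells. The intervals describe the sampling of cells within 1 pool, and do not compare the populations. Prdx5 was read in 55, 40, 25 and 41 cells after thinning. No cell type that lacks these genes was sorted, so a background share from free RNA could not be given. Together the 10 genes made up 6248, 4880, 4483 and 4654 CPM.

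Levels of different genes compare only per length. Per kb of exon union, Gpx1, the main cytosolic glutathione peroxidase, was the highest of the 10 in each population, with 1026, 841, 944 and 876 CPM per kb. In P2- MEPs the order after Gpx1 was Sod1 (310 CPM per kb), Prdx2 (295.4), Prdx3 (250), Prdx6 (206), Gpx4 (206), Prdx1 (184), Prdx4 (66.9), Prdx5 (47.05) and Cat (45.8). The counting intervals of Prdx6 and Gpx4 overlapped, as did those of Prdx5 and Cat. Reads of Gpx4, Prdx2 and Prdx5 in shared or overlapped stretches were not counted, while the full length was used. Their levels per kb are thus likely too low, and their places in the order are uncertain. The place of Sod1 depended on the length used, since its exon union of 3970 bases is far longer than its principal transcript of 641 bases. With principal transcripts, an alternative chosen after seeing the data, Sod1 ranked 1 in both MEP populations and 2, after Gpx1, in both CMP populations. Other genes changed place too, as Prdx3 went from rank 4 to 6 in P2- MEPs and from 3 to 8 in both CMP populations, and Prdx4 from 7 to 4 in P2- CMPs.

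The cytosolic 2-Cys peroxiredoxins Prdx1 and Prdx2 divided their reads differently in P2- MEPs and in the other populations. In P2- MEPs the Prdx2 level of single cells ran from 417 CPM over a median of 892 to 1438, and in P2+ MEPs from 20.7 over 480 to 1379. In P2- CMPs it ran from 164 over 343.8 to 663 CPM and in P2+ CMPs from 186 over 387 to 738. Only 5 of 47 P2+ MEPs and 0 of 27 P2- CMPs lay above the P2- MEP median, although the ranges of the populations overlapped. Pooled, Prdx2 was at 901, 532, 370.7 and 416 CPM. Prdx1 was at 560.0, 607, 645 and 718 CPM, with cell medians of 559, 566, 605 and 694. Per read on mouse genes Prdx1 thus varied by less than Prdx2, and was lowest where Prdx2 was highest, but both were higher in P2+ than in P2- CMPs. More Prdx2 than Prdx1 reads were found in 47 of 56 P2- and 18 of 47 P2+ MEPs, but in 6 of 27 P2- and 4 of 42 P2+ CMPs, and Prdx2 held 61.7%, 46.7%, 36.5% and 36.7% of the pooled reads of both genes. In P2+ MEPs the gene with the higher level per kb depended on the length, with 199.6 for Prdx1 and 174.3 for Prdx2 per kb of exon union but 264.7 and 329.8 per kb of principal transcript.

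**Figure D2:**
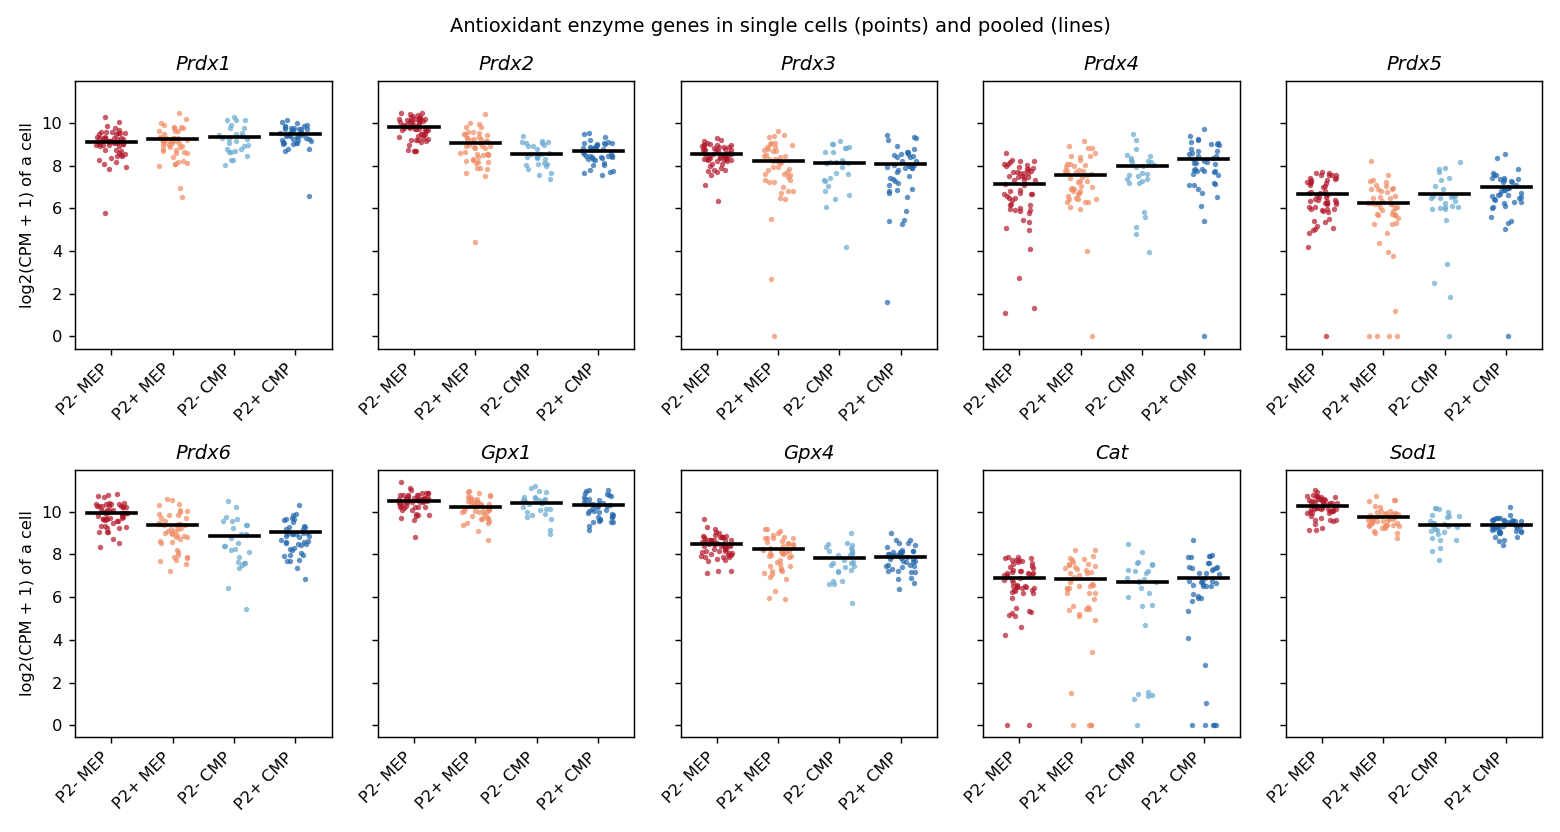
Level of each of the 10 genes in single cells (points, y axis log2(CPM + 1)) and pooled over cells (black lines) in the 4 sorted populations (x axis). Prdx2 cells lie around 892 CPM in P2- MEPs and 343.8 CPM in P2- CMPs, while Prdx4 cells lie higher in CMPs and Gpx1 cells cover similar ranges in all populations.

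Prdx6, the 1-Cys member that uses glutathione, followed the order of Prdx2. Its single-cell level ran from 323.03 CPM over a median of 979 to 1818 in P2- and from 151 over 580 to 1552 in P2+ MEPs. Among CMPs it ran from 41.9 over 376.4 to 1473 CPM in P2- and from 115 over 459 to 1296 CPM in P2+ cells. The ranges overlapped, and the medians were apart. Above the P2- MEP median lay 7 of 47 P2+ MEPs and 2 of 27 P2- CMPs.

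Prdx4, the peroxiredoxin of the endoplasmic reticulum, was lowest in P2- MEPs, where Prdx2 and Prdx6 were highest, and like them was higher in P2+ than in P2- CMPs. Pooled it was at 141, 190.1, 253.5 and 314.2 CPM, and its cell medians were 139, 158, 204 and 280 CPM. The cells ranged from 1.13 to 385 CPM in P2- MEPs and from 0 to 855 CPM in P2+ CMPs, and 1 P2- CMP held 17.9% of all Prdx4 reads of its population. Of 27 P2- CMPs, 22 lay above the P2- MEP median, and so did 26 of 47 P2+ MEPs. Prdx2 held 86.5% of the reads of Prdx2 and Prdx4 in P2- MEPs and 57.0% in P2+ CMPs.

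The mitochondrial Prdx3 was at 369.4, 302.2, 275.2 and 269.04 CPM, with overlapping counting intervals in the CMP populations. Prdx5, an atypical 2-Cys member found in mitochondria, peroxisomes and cytosol, was the lowest peroxiredoxin, at 101, 75.8, 101 and 126 CPM. Seen per length, the make-up of the peroxiredoxin mRNA differed between P2- MEPs and P2- CMPs: Prdx2 held 28.1% of the summed CPM per kb in the former and 15.5% in the latter, and Prdx6 19.7% and 12.5%. In turn Prdx1 went from 17.5% to 27.0% and Prdx4 from 6.37% to 15.3%, while Prdx3 held 23.8% and 23.7%. Per kb of principal transcript Prdx3 held 14.8% and 15.1%, and the shares were 33.1% and 18.7% for Prdx2, 24.6% and 16.1% for Prdx6, 14.4% and 22.8% for Prdx1, and 8.41% and 20.8% for Prdx4. With either length the shares of Prdx2 and Prdx5 are likely too low, since their reads in overlapped stretches were not counted.

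**Figure D3:**
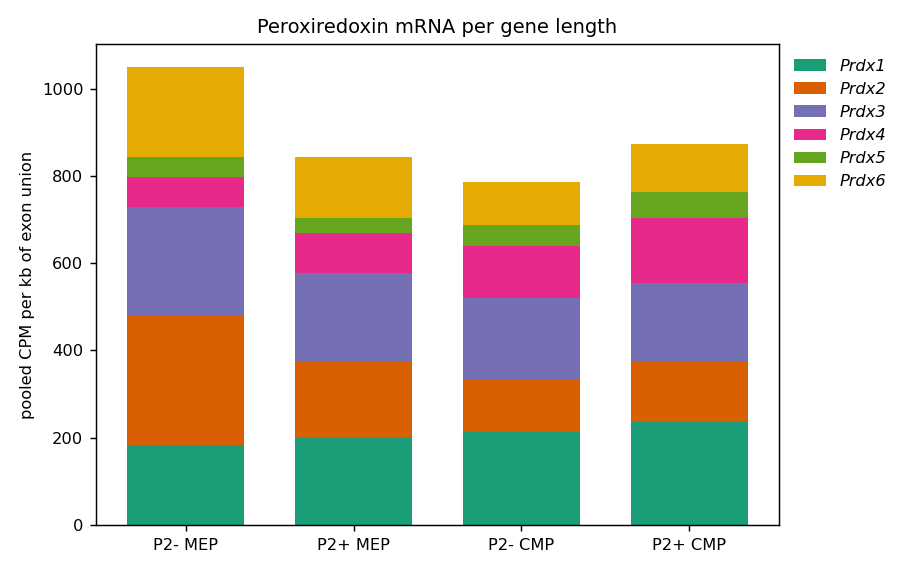
Pooled level of Prdx1 to Prdx6 per kb of exon union (y axis, CPM per kb, stacked bars from 0) in the 4 populations (x axis). The Prdx2 part shrinks from 295.4 CPM per kb in P2- MEPs to 121.5 in P2- CMPs and the Prdx4 part grows from 66.9 to 120.4.

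Sod1 was at 1232, 874, 670 and 665 CPM, and its counting intervals overlapped in the CMP populations. Its cells ran from 569 over a median of 1212 to 2091 CPM in P2- MEPs and from 215.6 over 654 to 1146 CPM in P2- CMPs. No P2- CMP of 27 and 5 of 47 P2+ MEPs exceeded the P2- MEP median. Gpx4, which reduces lipid hydroperoxides in membranes, was at 354.4, 306.96, 230.8 and 236.3 CPM. Gpx1 was at 1478, 1212, 1360.0 and 1263 CPM, and Cat at 119.6, 112.8, 105.3 and 118.7 CPM. For both genes cells of all populations covered largely the same range, and 10 of 27 P2- CMPs lay above the P2- MEP median of Gpx1 and 12 of 27 above that of Cat.

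The first comparison set P2+ MEPs against P2- MEPs and so asked what went with the P2 reporter within the CD34- gate. A gene was counted as different from a ratio of 1.5-fold on. Of the 10 genes 0 were higher, beside 24.5% of all genes tested, and 1 was lower, beside 13.0%. The lower gene was Prdx2, which was 1.69-fold lower (log2 ratio -0.76, exact binomial 95% interval -0.79 to -0.73). No other gene was inside the threshold, and just outside it were Prdx6 (-0.57) and Sod1 (-0.50). Prdx6 crossed it with DESeq2 size factors, with TMM factors, with equal weight for every cell and without the cell of highest level, which gave 2 lower genes each. The share of all genes was not computed at these settings. Prdx5 (-0.41), Prdx3 (-0.29), Gpx1 (-0.29), Gpx4 (-0.21) and Cat (-0.09) were below 0 on the log2 scale, and Prdx4 (0.43) and Prdx1 (0.12) above it, though both were below 0 per ERCC read. The median log2 ratio of the 10 genes was -0.29, beside 0.05 for all genes tested. Among genes of at least 100 CPM in either population, a background added after seeing the data that resembles these genes in level, 5.85% were higher and 6.08% lower.

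The second comparison set P2+ CMPs against P2- CMPs. None of the 10 genes passed 1.5-fold, beside 17.1% of all genes that were higher and 18.2% that were lower. The log2 ratios lay between -0.11 for Gpx1 (0.22 per ERCC read) and 0.32 for Prdx5, with Prdx4 at 0.31, Prdx2 and Cat at 0.17, Prdx6 at 0.16, Prdx1 at 0.15 and Gpx4 at 0.03. Prdx3 (-0.03) and Sod1 (-0.01) were too close to 0 for a direction and turned to above 0 with DESeq2 size factors, with TMM factors and per ERCC read. The median over the 10 genes was 0.16, beside -0.02 for all genes tested. Among genes of at least 100 CPM 3.56% were higher and 5.45% lower.

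The third comparison set P2- CMPs against P2- MEPs and held the widest differences. Here 1 of the 10 genes was higher, beside 32.5% of all genes, and 4 were lower, beside 17.7%. Prdx2 was 2.43-fold lower (log2 ratio -1.28, interval -1.32 to -1.24), Prdx6 2.10-fold (-1.07, -1.10 to -1.04), Sod1 1.84-fold (-0.88, -0.91 to -0.85) and Gpx4 1.54-fold (-0.62, -0.67 to -0.57). Prdx4 was 1.80-fold higher (0.85, 0.79 to 0.91), and still above 0 without the cell of highest level in each population (0.71). Gpx4 was just inside the threshold and fell outside it (-0.56) when mitochondrial genes and Rn18s-rs5 were left out of the totals, and Prdx3 (-0.42) was the nearest outside. The median over the 10 genes was -0.30, beside 0.11 for all genes. Among genes of at least 100 CPM 12.8% were higher and 17.6% lower.

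The fourth comparison set P2+ CMPs against P2+ MEPs. Prdx4 (1.65-fold, log2 ratio 0.73, interval 0.68 to 0.77) and Prdx5 (1.66-fold, 0.73, 0.66 to 0.80) were higher, 2 of 10 genes beside 25.5% of all genes. None was lower, beside 20.0%, and among genes of at least 100 CPM the shares were 11.2% higher and 15.1% lower. Sod1 (-0.39), Gpx4 (-0.38), Prdx2 (-0.35) and Prdx6 (-0.34) were next on the lower side, short of 1.5-fold, and were above 0 per ERCC read. The comparisons share populations in pairs, so that their values stand side by side and are not independent of each other.

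**Figure D4:**
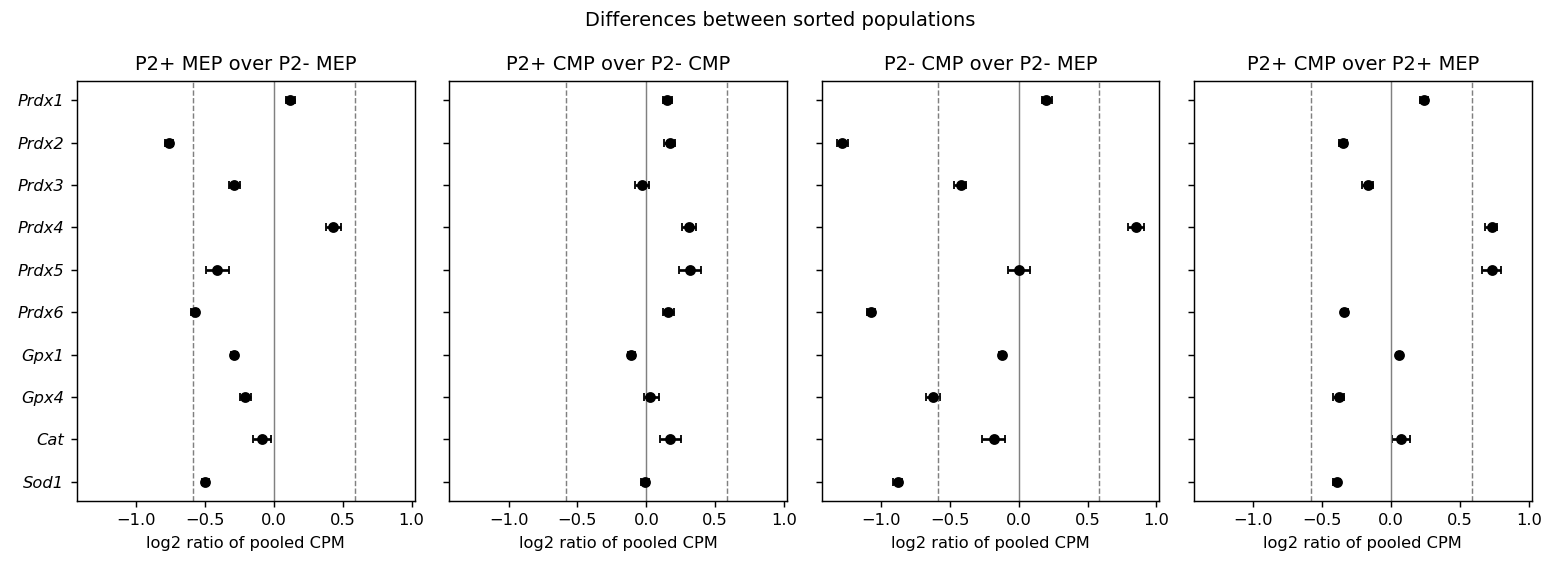
Log2 ratio of pooled CPM (x axis) of the 10 genes (y axis) in the 4 comparisons, with exact binomial 95% intervals that cover counting error only; dashed lines mark 1.5-fold. Prdx2, Prdx6 and Sod1 lie to the left in the panels that have P2- MEPs as the reference, down to -1.28, and Prdx4 lies to the right in all 4 panels, which per ERCC read is the case in all but P2+ against P2- MEPs.

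These ratios are per read on mouse genes. Per read on the ERCC spike-in RNA, which gives an amount per added RNA, the median of all genes moved by -0.62, 0.33, -0.51 and 0.43 on the log2 scale in the 4 comparisons in the order above. Genes of the set past 1.5-fold were then 0 higher and 8 lower, 2 and 0, 0 and 7, and 3 and 0. The share of all genes past 1.5-fold was not computed per ERCC read, so these counts have no background beside them. The median log2 ratio of all genes per ERCC read was itself -0.56, 0.31, -0.41 and 0.44 in the 4 comparisons. Prdx1 (-0.50) and Prdx4 (-0.18) turned to lower in P2+ against P2- MEPs, and Prdx2 (0.08), Prdx3 (0.26), Prdx6 (0.10), Gpx4 (0.06) and Sod1 (0.04) turned to higher in P2+ CMPs against P2+ MEPs. Prdx1 also turned in P2- CMPs against P2- MEPs, from 0.20 to -0.31. Prdx2, Prdx6 and Sod1 stayed lower in P2- CMPs than in P2- MEPs with every scaling tried, with log2 ratios of -1.80, -1.58 and -1.39 per ERCC read.

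The summed level of the erythroid marker genes, like Prdx2, Prdx6 and Sod1, was highest in P2- MEPs and next in P2+ MEPs, but it was lower in P2+ than in P2- CMPs, where the log2 ratio was 0.17 for Prdx2, 0.16 for Prdx6 and -0.01 for Sod1. The 14 erythroid markers summed to 2176, 1108, 568 and 234.5 CPM, and 14, 14, 12 and 10 of them had reads. Single markers departed from the sum, as Alas2 (1.08, 4.18, 0.545 and 0.963 CPM) and Hbb-bs (65.6, 111, 0.545 and 0.605) were highest in P2+ MEPs and Hbb-bt (9.51, 9.79, 232.2 and 121) in P2- CMPs, and 2 of 12 tested markers, Alas2 and Hba-a1, were at least 1.5-fold higher in P2+ than in P2- CMPs, with counting intervals that included 0 on the log2 scale. The globin genes are paralogs whose reads can be shared. Hbb-bs was read in 26, 19, 3 and 4 cells and Hbb-bt in 19, 16, 15 and 35 cells, so that their balance differed between MEPs and CMPs although the protocol describes 1 pool of livers. What this says of the common origin of the MEPs and CMPs that are set against each other was not tested. The summed level of a cell had its median at 2209, 808, 491 and 204 CPM. Stem and multipotent markers had the other order, with 11.7, 118, 617 and 963 CPM over 6 genes. The 9 megakaryocyte markers summed to 72.04, 514.1, 548 and 630.02 CPM. Pf4, Gp9 and Gp1bb had no read in P2- MEPs and passed the filter through the other populations, so no count is given for this list. The part of these differences in make-up in the antioxidant gene ratios was not tested. Over all 172 cells, which differ in population and depth, the genes whose CPM followed Prdx2 most closely were Blvrb (Spearman rho 0.72), an enzyme of biliverdin reduction, Tdpx-ps1 (0.70), its own copy, and Alad (0.62), an enzyme of heme synthesis. Sod1 was followed by Cpox (0.65), also of heme synthesis, Blvrb (0.64) and Alad (0.64), and Prdx6 by Lgals1, Alad and Blvrb (0.62 each). Prdx4 was nearest to Plp2 (0.41), Ctla2a (0.39) and the ribosomal RNA feature Rn18s-rs5 (0.39), which took 55808 CPM in P2- MEPs and 106290 in P2+ CMPs. Prdx3 was nearest to Eif5a (0.40), Gpx1 to Rpl4 (0.44) and Gpx4, after its copy (0.76), to Smim1 (0.52). The highest rho of Prdx1 was 0.36 (Ppp1ca), of Prdx5 0.32 (Xpc) and of Cat 0.24 (Psd4), which is weak in counts of this kind.

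Within a population the 10 genes varied largely on their own. Over the 45 pairs the median Spearman rho was 0.03, 0.05, 0.06 and 0.08. The highest values were 0.39 for Prdx3 with Prdx6 (56 P2- MEPs), 0.40 for Prdx2 with Prdx6 (47 P2+ MEPs), 0.62 for Gpx1 with Gpx4 (27 P2- CMPs) and 0.37 for Prdx1 with Gpx1 (42 P2+ CMPs). The lowest were -0.36 in P2- MEPs (Prdx2 with Prdx4), -0.24 in P2+ MEPs, -0.44 in P2- CMPs (Cat with Sod1) and -0.12 in P2+ CMPs. Klf1 went with Prdx6 at 0.53 and with Prdx2 at 0.34 in P2+ MEPs, and Cd34, which was read in only 7 of these 47 cells, with Sod1 at -0.45. In P2- MEPs, where Klf1 was read in all 56 cells, these values were 0.15 for Prdx6 and 0.26 for Prdx2. Among P2- CMPs Klf1 went with Gpx1 at 0.48, with Prdx6 at 0.31 and with Prdx2 at 0.27. Cd34 was read in 23 of 27 P2- and 41 of 42 P2+ CMPs, and there went with Sod1 at 0.07 and -0.03. Cells of a population share the pool and the sort and differ in depth, so that these are descriptions. Gpx1 and Sod1 were the steadiest of the 10 genes over cells in both MEP populations, with coefficients of variation of 0.257 and 0.279 in P2- MEPs. The median over genes of at least 100 CPM was 0.510, but most of these genes are lower in level than Gpx1 and Sod1. In P2- CMPs Gpx1 (0.340) and Prdx2 (0.358) were the steadiest, and in P2+ CMPs Sod1 (0.240) and Prdx1 (0.284). Prdx2 went from 0.306 in P2- MEPs to 0.50 in P2+ MEPs and Prdx6 from 0.343 to 0.548, while the median over the genes of at least 100 CPM, most of which are lower in level than these 2 genes, went from 0.510 to 0.642.

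The thioredoxin system, which restores oxidised peroxiredoxins, had no common direction. In P2- CMPs against P2- MEPs 3 of its 12 genes were higher, beside 32.5% of all genes, and 3 lower, beside 17.7%, with a median log2 ratio of 0.07. Txn1, the cytosolic thioredoxin, was at 636, 634, 795 and 878 CPM, higher in both CMP fractions than in both MEP fractions. Txnrd1, its reductase, stood at 126, 169, 137 and 173 CPM. Srxn1, the sulfiredoxin that rescues overoxidised peroxiredoxins, was low throughout, at 11.0, 16.7, 11.1 and 1.57 CPM. The sestrin gene Sesn1 was at 18.7, 28.5, 65.5 and 93.6 CPM. In the glutathione list 3 of 8 tested genes were lower in P2- CMPs than in P2- MEPs and 0 higher, beside the same 17.7% and 32.5%. Gclm, the modifier subunit of the enzyme that starts glutathione synthesis, was at 219.1, 115, 58.9 and 55.8 CPM, Glrx5, a mitochondrial glutaredoxin of iron-sulfur cluster assembly, at 757, 498, 262.7 and 254.7, and Gss, glutathione synthetase, at 41.5, 45.5, 18.7 and 21.9. Gsr, glutathione reductase, ranged only from 145 to 113 CPM, and the mitochondrial superoxide dismutase Sod2 from 271.8 to 157.

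Of 8 tested genes that supply NADPH, 2 were higher and 2 lower in P2- CMPs than in P2- MEPs, beside 32.5% and 17.7% of all genes, and 4 passed in neither direction. Idh2, the mitochondrial isocitrate dehydrogenase, was at 148, 184, 347.4 and 468 CPM, and Idh1 at 8.56, 13.7, 22.9 and 32.8. G6pdx, which opens the pentose phosphate pathway, was at 94.9, 77.1, 30.3 and 58.7 CPM. Of the 7 genes that insert selenocysteine, on which Gpx1 and Gpx4 depend, 1 was higher and 1 lower in P2- CMPs than in P2- MEPs, beside 32.5% and 17.7% of all genes. These were Sepsecs (16.6 CPM in P2- MEPs and 28.8 in P2- CMPs) and Sephs2 (129 and 77.8). The median of that list was -0.04.

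Of the 12 genes of the NADPH oxidase list, which are subunits of the enzyme complexes that form superoxide and their regulators, 6 passed the filter on low counts and 6 did not. Some of the 6 had no read in P2- MEPs and passed through the other populations, so no count or median is given for this list. Cybb, the catalytic subunit of the phagocyte oxidase, had 1 read in P2- CMPs and none elsewhere. Rac2 was at 191, 289.8, 744 and 805 CPM and Ncf4, without a read in P2- MEPs, at 5.70, 33.3 and 64.4 in the others. The 9 granulocyte and monocyte markers summed to 16.3, 66.6, 435 and 700.2 CPM, and their part in these values was not tested. The transcription factor NRF2, which drives many antioxidant genes, is encoded by Nfe2l2, and this gene was at 124, 97.8, 81.9 and 48.0 CPM. Its inhibitor Keap1 stood at 52.2, 59.3, 38.0 and 33.7 CPM, the repressor Bach1 at 2.97, 4.94, 7.85 and 11.4, and the erythroid and megakaryocytic relative Nfe2 at 152, 262.8, 285.9 and 187. Of 8 tested NRF2 target genes 3 were lower, beside 17.7% of all genes, and 0 higher, beside 32.5%, in P2- CMPs against P2- MEPs, with a median of -0.41. One of these targets, Nqo1, was at 26.6, 5.86, 17.6 and 5.39 CPM, lower in the P2+ fraction of each compartment. Another, Hmox1, the inducible heme oxygenase, was at 5.91, 9.18, 1.53 and 10.9 CPM, higher in the P2+ fraction of each.

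**Figure D5:**
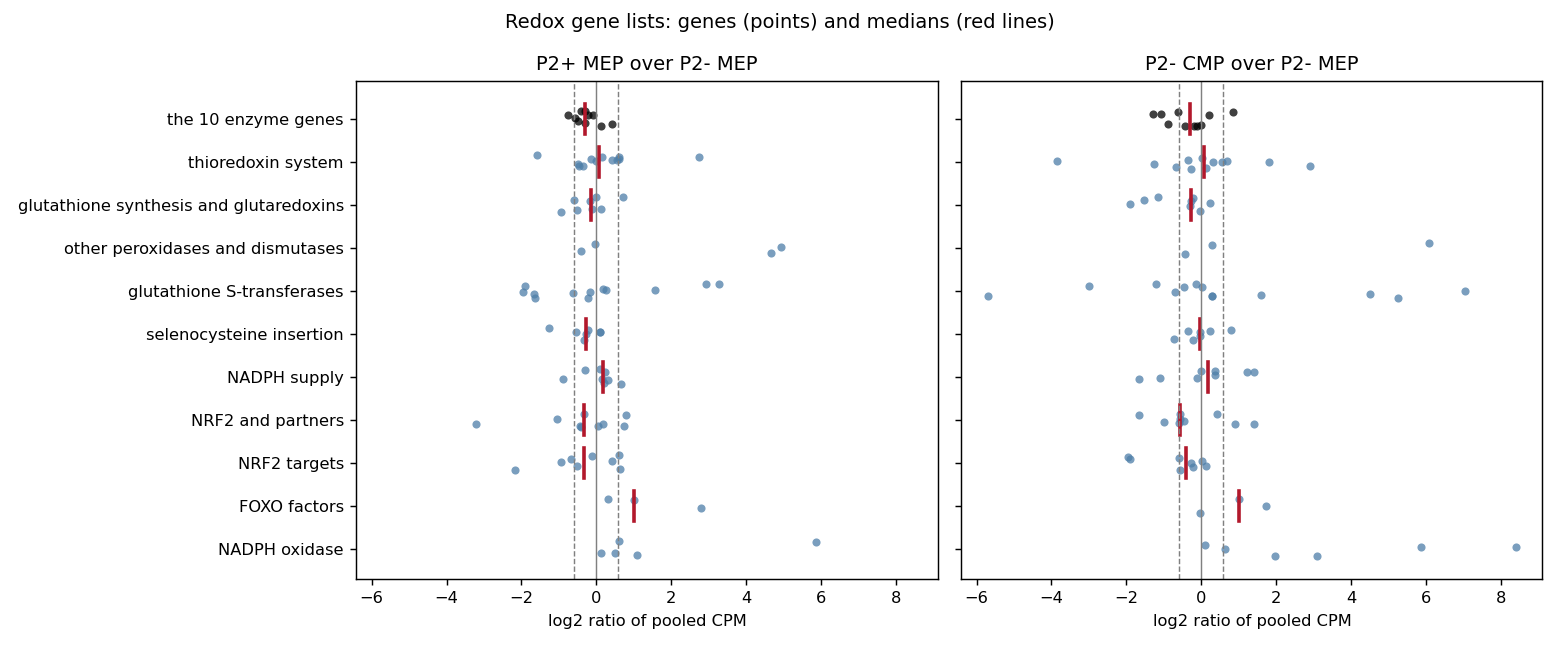
Log2 ratio of pooled CPM (x axis) of single genes (points) in the 10 enzyme genes and in each redox list (y axis), with medians in red for lists in which every gene drawn had reads in both populations; dashed lines mark 1.5-fold, and a gene without reads in 1 population is drawn at the bound that 3 reads give. In P2- CMPs over P2- MEPs the 10 enzyme genes have their median at -0.30 and the thioredoxin system at 0.07, and the NADPH oxidase list shows only the 6 genes that passed the filter.

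The promoters were searched for short motifs, among them the antioxidant response element to which NRF2 binds and the motifs of erythroid GATA and KLF factors. Of the 10 genes 9 were matched in the RefSeq promoter table (GRCm38.p6, 250 bases before to 50 after a start), with 12 promoters. Prdx6 had no promoter there and was not searched. The core of the antioxidant response element, TGACNNNGC, on either strand, was found at Prdx1 and at Sod1 and in 12.4% of all 32851 promoters. Shown are the windows around these matches on the strand of the gene, with the match, which lies on the reverse strand, in capitals.
Prdx1: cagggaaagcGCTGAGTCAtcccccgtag
Sod1: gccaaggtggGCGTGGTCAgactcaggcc
The first is at chr4:116685456-116685484, where the match starts 133 bases before the start site, and the second at chr16:90220696-90220724, 56 bases before it. In Sod1 this match overlaps one to CCACNCCC, a motif of KLF factors, which was also found at Prdx3 and Prdx5 and in 17.6% of all promoters. The GATA motif, AGATAA or TGATAA on either strand, was found in 18.6% of all promoters and among these genes in 2 of the 4 promoters of Gpx4, which overlap and share this 1 match. CCAAT, on either strand, was in 37.4% of all promoters and at Prdx4, Cat, Sod1 and 3 of the 4 promoters of Gpx4, of which the same 2 share their matches. Prdx2 held none of these motifs in its window. Only these windows were searched, and a link between the presence or absence of a motif and the levels was not tested.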

How the data were processed

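Single-cell RNA sequencing counts of 175 cells from 4 sorted populations were used. The authors trimmed reads with Trimmomatic (0.36), aligned them with STAR (2.4.2a) to GRCm38 with ERCC sequences and counted them with HTSeq (0.6.1p1) on GENCODE exons without strand. The deposited values are raw counts per gene and cell, and the authors also deposited the unmapped reads of a cell in percent. Totals leave out the 5 HTSeq rows that name no gene; 25.6% of uniquely mapped reads were ambiguous and 7.4% on no feature. Ambiguous reads lower the counts of overlapping and copied genes.

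Cells with fewer than 250000 reads, over 25% unmapped or over 15% ERCC reads were removed, as in the study (3 cells). Total reads per kept cell were 571806 to 2827426. Groups were taken from the sample titles. Counts were summed per population and scaled to CPM, with exact Poisson intervals, and ratios have exact conditional binomial 95% intervals; both cover counting error only, since no molecular identifiers were used. A population without reads was set to 3 reads, and no ratio was formed when both held 3 or fewer. Called means at least 1.5-fold, among genes whose mean count reached 1. With 1 sample per population no test was made. The ratio code was tested on simulated data.

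The members and lists were chosen with earlier results of these data known. Named were all 10 members, up to 4 genes per redox list with the largest ratio at 10 CPM or more, Txn1, Txnrd1, Srxn1, Gsr, Sod2, Nfe2l2, Keap1, Bach1 and Nfe2, marker genes, and the 3 genes most correlated with each member. Some genes that this rule names are not reported here. Alternatives were other scalings (DESeq2 1.42.0, edgeR 4.0.16, ERCC reads), cell weights, cell sets, a 2-fold threshold, filters and thinning depths. Python 3.11.15, scipy 1.17.1 and R 4.3.3 were used.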

Additional observations from a re-analysis of the deposited data

Results flagged for a closer look

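In 4 genes P2+ cells differed from P2- cells in opposite directions in MEPs and in CMPs, with counting intervals on either side of 0 in both compartments, as did 29.6% of all 11591 genes tested. The log2 ratio was -0.76 in MEPs and 0.17 in CMPs for Prdx2, -0.57 and 0.16 for Prdx6, -0.41 and 0.32 for Prdx5, and -0.09 and 0.17 for Cat. The difference between the compartments was not tested, since each population is 1 sample, and the ranges of single cells overlapped for every one of these genes. With ERCC reads as the denominator all 10 genes were below 0 in MEPs (-1.38 for Prdx2 to -0.18 for Prdx4) and above 0 in CMPs (0.22 for Gpx1 to 0.65 for Prdx5), and so was the median of all genes, at -0.56 and 0.31. With equal weight for every cell the value in CMPs was 0.02 for Prdx6 and 0.11 for Prdx2.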

How the results depend on the processing

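Each of the 40 log2 ratios was recomputed under 8 other settings. The sign turned in 11 of 40 with ERCC reads as the denominator, in 2 each with DESeq2 size factors and TMM factors, in 1 without mitochondrial genes and Rn18s-rs5, in 1 without the P2- CMP of conflicting label, and in 0 with equal weight, with all deposited cells and without the cell of highest CPM; outside the ERCC scaling only Prdx3 and Sod1 between the CMP populations turned, and Prdx5 between the P2- populations, at 0.00 and so not counted, ran from -0.10 to 0.05, and the largest change was 0.15. The count of lower genes in P2+ against P2- MEPs went from 1 to 2 with equal weight, DESeq2 size factors, TMM factors or without the cell of highest CPM, to 8 per ERCC read and to 0 at 2-fold. In P2+ against P2- CMPs the higher genes went from 0 to 2 per ERCC read. In P2- CMPs against P2- MEPs the higher genes went from 1 to 0 per ERCC read and to 0 at 2-fold, and the lower genes from 4 to 7 per ERCC read, to 3 without mitochondrial genes and Rn18s-rs5, where Gpx4 was at -0.56, and to 2 at 2-fold. In P2+ CMPs against P2+ MEPs the higher genes went from 2 to 0 at 2-fold. A threshold of 2-fold counts fewer genes by construction, and the cause of the other changes was not tested. The share of all genes past the threshold was not computed at these other settings, so their counts have no background beside them. No paired analysis was possible because every population is 1 sample and cell numbers are unique to a cell. Cells without a read were most frequent for Cat and Prdx5, and at this depth such a cell cannot be told from one with a low level.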

Other observations

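Among the glutathione S-transferases, which conjugate glutathione to electrophiles, Gsta4 was at 25.6 and 6.62 CPM in P2- and P2+ MEPs, and at 0.491 and 1.16 in the CMP fractions. Gstk1 was at 1.60, 12.2, 36.8 and 15.2 CPM in the same order, and Mgst1, without a read in P2- MEPs, at 0.950, 12.9 and 21.2 in the others. The cause of these differences was not tested.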
